A study of Mus musculus with 59 samples.

Results

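The tibialis anterior (TA), a fast muscle at the front of the shin, was compared with the soleus (SOL), a slow postural muscle of the calf, in mice whose melanoma did not cause wasting. The members were the 10 libraries that the labels place in these muscles and in the non-cachectic set, 5 per muscle, out of 59 in the series. All came from female NCI Ath/nude mice, an athymic strain without mature T cells, that were 4 months old and carried a human melanoma xenograft grown from patient tissue. The non-cachectic xenograft stands for a tumor without muscle loss, and no limb library came from a mouse without a tumor. The labels of the limb muscles name no injection, whereas the diaphragm libraries of the series came from mice given recombinant Fibcd1 or a mock injection. RNA was made from whole muscle, so vessels, nerve, tendon and fat could be part of each sample. Differences below are TA minus SOL on log2(TPM + 1), where TPM is the share of all transcripts given to a gene after correction for length, set to the same total in each library, and a positive value means a higher level in TA. Values of the 5 libraries are always given in the order of the numbers that the table gives its columns, which are 61, 62, 63, 64 and 65 for both muscles.

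Muscle fibers differ in the speed at which they shorten and in the fuel they burn. Slow (type I) fibers carry the heavy chain encoded by Myh7 and rely on oxidative metabolism, whereas fast fibers carry Myh2 (type IIA), Myh1 (type IIX) or Myh4 (type IIB), and the IIB fibers depend most on glycolysis. Most proteins of the contractile and calcium machinery exist as a fast and a slow form encoded by separate genes. In mice the TA is known to be built almost wholly of fast fibers, while the SOL mixes slow and IIA fibers.

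The genes with the lowest and the highest differences were Myh7, Tnnc1 and Tnnt1, which encode the slow myosin heavy chain and the slow forms of troponin C and T, and Myh4, Pvalb and Mybpc2, which encode the fastest myosin, the calcium buffer parvalbumin and fast myosin-binding protein C. The 250 bases before the RefSeq start of each of these 6 genes (GRCm38.p6) are shown because this is the DNA next to the start of the transcripts that differ most. Capitals mark matches, on either strand, to CAGCTG (an E-box of the form preferred by myogenic factors), CATTCC (the MCAT element read by TEAD factors) and TATAAA (the TATA box).
Myh7 (chr14:54994627-54994876, strand minus): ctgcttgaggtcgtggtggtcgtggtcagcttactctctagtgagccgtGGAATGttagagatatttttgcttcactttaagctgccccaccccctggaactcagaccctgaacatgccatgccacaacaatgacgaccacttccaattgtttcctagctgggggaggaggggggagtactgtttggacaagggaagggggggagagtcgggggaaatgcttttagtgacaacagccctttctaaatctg
Tnnc1 (chr14:31208062-31208311, strand plus): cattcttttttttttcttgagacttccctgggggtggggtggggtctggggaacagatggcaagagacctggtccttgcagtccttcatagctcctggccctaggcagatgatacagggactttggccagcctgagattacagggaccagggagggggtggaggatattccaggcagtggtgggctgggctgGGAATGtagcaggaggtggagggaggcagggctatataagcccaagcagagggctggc
Tnnt1 (chr7:4515976-4516225, strand minus): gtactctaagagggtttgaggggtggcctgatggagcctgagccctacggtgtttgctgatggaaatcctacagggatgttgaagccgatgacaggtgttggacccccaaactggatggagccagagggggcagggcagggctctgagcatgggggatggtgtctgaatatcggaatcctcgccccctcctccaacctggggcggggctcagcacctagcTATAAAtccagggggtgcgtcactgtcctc
Myh4 (chr11:67237562-67237811, strand plus): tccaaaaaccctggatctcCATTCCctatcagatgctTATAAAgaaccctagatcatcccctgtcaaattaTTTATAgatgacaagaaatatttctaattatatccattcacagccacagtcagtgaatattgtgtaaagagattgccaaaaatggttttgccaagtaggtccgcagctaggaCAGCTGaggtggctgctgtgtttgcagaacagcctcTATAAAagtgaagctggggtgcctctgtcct
Pvalb (chr15:78206401-78206650, strand minus): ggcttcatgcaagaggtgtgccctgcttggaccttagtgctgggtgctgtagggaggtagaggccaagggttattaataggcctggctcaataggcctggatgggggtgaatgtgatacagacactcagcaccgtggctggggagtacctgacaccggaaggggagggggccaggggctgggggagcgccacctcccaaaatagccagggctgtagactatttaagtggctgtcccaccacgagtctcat
Mybpc2 (chr7:44524670-44524919, strand minus): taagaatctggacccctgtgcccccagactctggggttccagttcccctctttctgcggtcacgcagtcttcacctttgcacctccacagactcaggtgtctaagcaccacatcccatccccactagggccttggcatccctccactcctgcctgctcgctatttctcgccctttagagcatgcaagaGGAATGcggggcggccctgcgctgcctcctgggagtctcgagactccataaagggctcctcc
The CATTCC element was found in 2 of the 3 slow genes, namely Myh7 and Tnnc1, and in 2 of the 3 fast genes, namely Myh4 and Mybpc2. It was also present in the same window of 12.6% of 27025 genes. TATAAA was found in Tnnt1, with its near end 24 bases before the start, and in Myh4, which held 3 copies with the nearest 25 bases before the start (13% of all genes and 6.43% of 8796 tested genes held a match). CAGCTG occurred only in Myh4 among these windows, against 12.8% of all genes. The looser E-box CANNTG, present in 66% of all genes, was found in each gene but Pvalb, and the MEF2 consensus in none (0.514% of all genes). These matches describe letters in a window and were not tested against the expression values.

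Of 11616 genes that passed the filter, 9972 (85.8%) differed between the muscles at an adjusted p under 0.05 (limma, Benjamini-Hochberg), of which 937 (8.07% of those tested) were higher in TA and 9035 (77.8%) were higher in SOL. The 2 groups of 5 libraries did not overlap for 8773 genes (75.5%). A difference of 2-fold or more was called for 227 genes higher in TA (1.95%) and for 1729 genes higher in SOL (14.9%). The excess on the soleus side rested on how TPM was scaled. The median difference over all genes tested was -0.51, and mitochondrially encoded transcripts took 48.5% ± 1.8 of TPM in TA against 41.1% ± 1.99 in SOL (SD, n = 5 each, p = 0.00794, two-sided exact permutation test, the smallest p that 252 regroupings allow). With libraries paired by column number the p was 0.0625, the smallest that 5 pairs allow. With mitochondrial genes removed and the rest rescaled, 7612 genes were higher in SOL and 1541 in TA, with a median of -0.373. After median-ratio scaling, which sets the typical gene level, 4485 genes (38.6%) were higher in TA and 3637 (31.3%) in SOL, and 2141 genes were called in opposite directions under the 2 scalings. At 2-fold or more, 560 genes were then higher in TA and 572 in SOL. Of the 1956 genes called at 2-fold or more as deposited, 799 were also called at 2-fold or more in the same direction after this scaling. Counts for gene lists in non-cachectic mice are therefore given under both scalings below. Small differences are to be read against the median of -0.51.

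**Figure D1:**
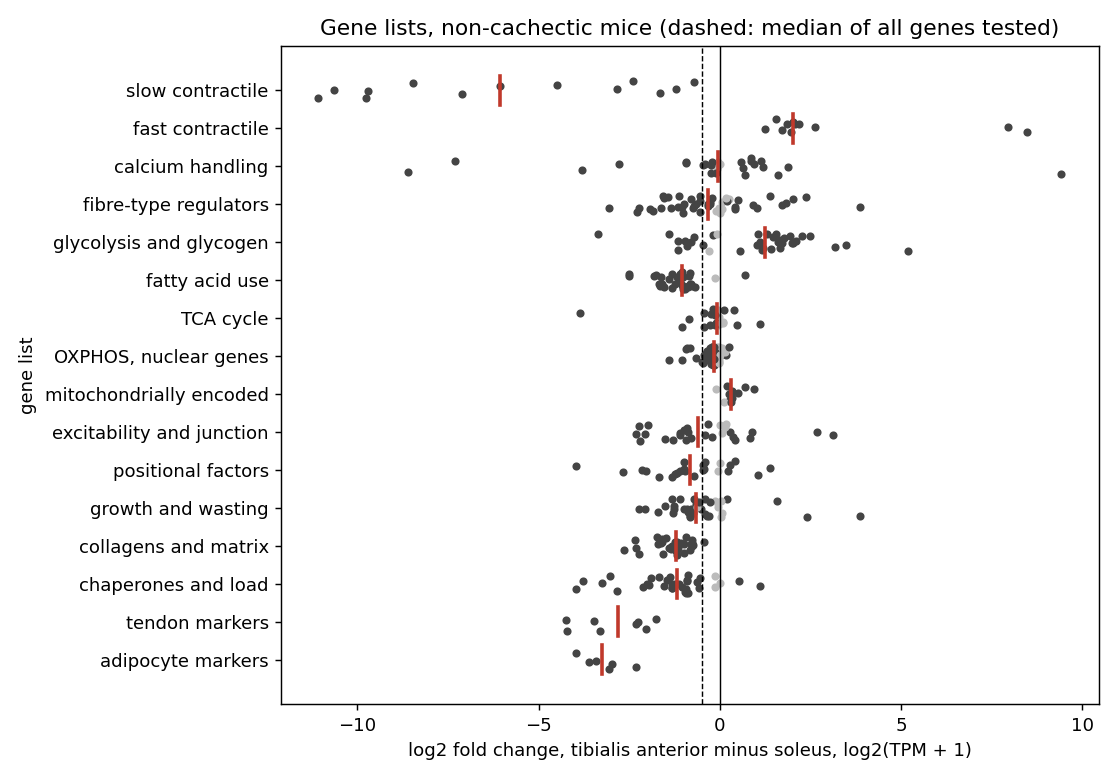
Difference between tibialis anterior and soleus (x axis, log2 fold change of TPM + 1) for the genes of 16 lists (y axis). Each point is a gene, dark where its adjusted p is under 0.05, the red bar is the median of the list, the solid line marks 0 and the dashed line the median of all genes tested at -0.51. Slow contractile genes lie far to the left with a median of -6.06, fast contractile genes lie to the right with a median of 2.01, and glycolysis stands apart from the other metabolic lists at 1.24.

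The heavy chains of slow and IIB fibers were among the genes that separated the muscles most (see the plot of myosin heavy chains by library). Myh4 (chr11:67238029-67260446), the IIB heavy chain, stood at 13729, 7593, 12845, 11695 and 10025 TPM in TA and at 7.34, 7.64, 12.1, 24.9 and 22 TPM in SOL. Every TA library was far above every SOL library, and the difference was 9.60 (SE 0.32, adjusted p = 1.3e-09). Myh7 (chr14:54970684-54994626), the slow heavy chain, gave the mirror image, with 0.46, 0.904, 0.271, 0.299 and 2.31 TPM in TA and 4407, 4288, 5313, 5166 and 5550.4 TPM in SOL. Its difference of -11.48 (SE 0.23, adjusted p = 3.41e-11) was the lowest of all genes tested. Myh6, the neighbor of Myh7 that encodes the fast heavy chain of the heart, was at -9.09, with 814 to 1075 TPM in SOL and at most 1.9 TPM in TA. Myh7b, a further relative of the slow heavy chain, differed by -5.57.

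The intermediate fast heavy chains were shared to a greater degree. Myh1 (IIX) was present at 5432, 6064, 5599, 5257 and 6019 TPM in TA, and at 513, 139, 83.2, 497 and 132 TPM in SOL, so that SOL libraries 61 and 64 stood above the other 3. Myh2 (IIA) was the fast heavy chain of the SOL, with 3635, 3145, 3039, 2087 and 2079.9 TPM, against 427, 1039, 352, 731 and 739.8 TPM in TA. The groups did not overlap for either gene, and the differences were 4.76 (SE 0.46) for Myh1 and -2.16 (SE 0.28) for Myh2. Expressed as a share of the TPM of all 11 heavy chain genes in a library, which include the non-muscle Myh14 at 0.435% or less, Myh4 made up 51.4% to 70% in TA, Myh1 27.7% to 41% and Myh2 1.87% to 7.03%. In SOL, Myh7 accounted for 46% to 61.4%, Myh2 for 23% to 37.9%, Myh6 for 9.11% to 11.9% and Myh1 for 0.866% to 5.55%. The diaphragm of 9 non-cachectic mock-injected mice had another pattern, with 56.3% ± 5.29 of Myh1, 34.8% ± 4.97 of Myh2, 4.37% ± 0.664 of Myh7 and 2.76% ± 2.28 of Myh4 (SD). The heavy chains are close paralogs, and how reads shared between them were counted is not given in the sources used here.

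Of the rarer heavy chains, the embryonic Myh3 was higher in SOL at 23.3 to 49 TPM, against 2.31 to 4.91 TPM in TA (difference -2.87), and Myh14, which encodes a non-muscle heavy chain, was higher in SOL by a smaller margin (-1.43). The perinatal Myh8 and the extraocular Myh13 did not pass the test, with differences of 1.03 (SE 1.06, adjusted p = 0.374) and 0.26 (SE 0.67, adjusted p = 0.727). The TA libraries fell into 2 sets for both genes. Myh8 was at 0.74 and 1.53 TPM in TA libraries 61 and 63, but at 52, 61.2 and 57.8 TPM in TA libraries 62, 64 and 65. Myh13, which lies next to Myh8 on chromosome 11, was at 0.569 and 0.46 TPM in the first pair and at 13.2, 12.2 and 13.5 TPM in the others. Of the 10 heavy chain genes tested, 2 were higher in TA, 6 were higher in SOL and 2 were not called, under both scalings. Of all genes, 8.07% were higher in TA and 77.8% in SOL as deposited, and 38.6% and 31.3% after median-ratio scaling.

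**Figure D2:**
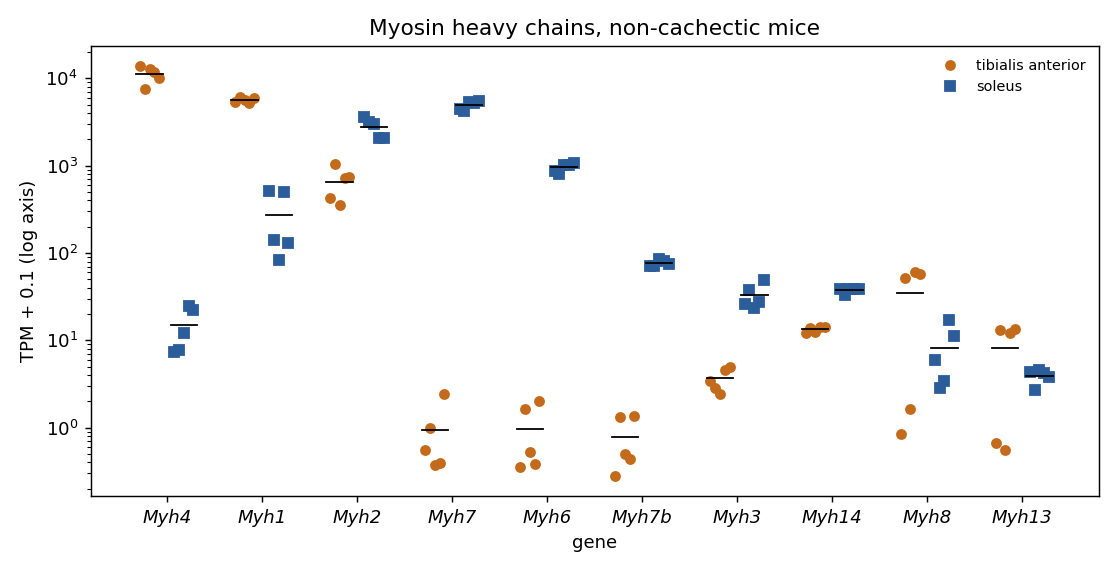
TPM + 0.1 (y axis, log scale) of 10 myosin heavy chain genes (x axis) in each tibialis anterior library (circles) and each soleus library (squares), with the mean as a line. Myh4 lies at 7593 TPM or more in every TA library and at 24.9 TPM or less in every SOL library, Myh7 shows the opposite pattern, and the TA libraries split into 2 sets for Myh8 and Myh13.

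The other contractile genes followed the heavy chains. All 13 genes of the slow contractile list were higher in SOL as deposited (median -6.06), and 12 remained so after median-ratio scaling, the exception being Mybpc1 (77.8% and 31.3% of all genes were higher in SOL). All 11 genes of the fast contractile list were higher in TA under both scalings (medians 2.01 and 2.66), against 8.07% and 38.6% of all genes. The troponin C genes illustrate the difference in size between many slow and fast partners. Slow troponin C, Tnnc1, was at 1.16, 2.87, 1.53, 1.16 and 5.05 TPM in TA and at 5489.8, 5942, 7706, 6799 and 7475 TPM in SOL (difference -11.07, SE 0.26, adjusted p = 1.04e-10). Its fast partner Tnnc2 was at 13409, 11100.2, 13192, 13297 and 12562 TPM in TA and still at 6387, 5964, 5419.5, 4724 and 4591 TPM in SOL (difference 1.24, SE 0.10, adjusted p = 3.44e-07). The fast gene provided at least 99.96% of the TPM of the pair in TA, but 38% to 53.8% in SOL.

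The same asymmetry held for most pairs (see the plot of fast and slow partners). For troponin T (Tnnt3 and Tnnt1) the fast share in SOL was 43.9% to 58.2%, for troponin I (Tnni2 and Tnni1) it was 48.3% to 67.8%, for tropomyosin (Tpm1 and Tpm3) 20.4% to 30.1%, for the regulatory light chain (Mylpf and Myl2) 24.3% to 39.5% and for the essential light chain (Myl1 and Myl3) 17.5% to 23.8%. In TA the fast gene of each of these pairs made up at least 98.9%. Slow Tnnt1, Tnni1, Myl2, Tpm3 and Myl3 differed by -10.64, -9.77, -9.70, -8.47 and -7.10, whereas fast Tnnt3, Tnni2, Mylpf, Tpm1 and Myl1 differed by 1.72, 1.54, 2.19, 2.07 and 1.96. The groups did not overlap for any of these 10 genes, nor for 75.5% of all genes tested.

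A few fast genes were nearly restricted to TA. Actn3, which encodes the alpha-actinin of the Z-line in fast fibers, was at 4116, 2243, 3569, 3709 and 2831 TPM in TA and at 13.3, 8.03, 9.21, 27.2 and 8.8 TPM in SOL (difference 7.96, SE 0.29). Mybpc2 was at 2265, 1285, 2211, 2299 and 1972 TPM in TA and at 10.5, 1.59, 2.01, 27 and 0.982 TPM in SOL (difference 8.48, SE 0.63). For both genes the highest SOL value was in library 64 and the next in library 61, the 2 libraries that also had the most Myh1, while TA library 62 was the lowest of its group. Their partners were widely shared, since Actn2 was at 669.9 to 1090.4 TPM in TA and at 2373 to 2851 TPM in SOL (-1.66), and Mybpc1 at 1633 to 1845 TPM in TA and 2817 to 3168 TPM in SOL (-0.71, and -0.07 after median-ratio scaling, no longer called). Among other sarcomere genes, Mylk2, the kinase of the regulatory light chain, and Myoz1 and Myoz3, which bind calcineurin at the Z-line, were higher in TA by 2.01, 2.62 and 1.84. The light chain Myl6b, the slow calsarcin Myoz2 and the small protein Smpx were higher in SOL, with differences of -6.06, -4.48 and -1.21. Ankrd2 and Csrp3, known for their response to stretch, differed by -2.83 and -2.38, and TA library 65 held the most of both (389.8 and 201 TPM, against at most 191 and 96.5 TPM in the other TA libraries). Skeletal actin, Acta1, was abundant at 34080.0 ± 2682 TPM in TA and 37209.5 ± 3395 TPM in SOL (SD, n = 5), a difference of -0.13 that did not pass as deposited (adjusted p = 0.16), while median-ratio scaling put it at 0.52 and called it higher in TA.

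**Figure D3:**
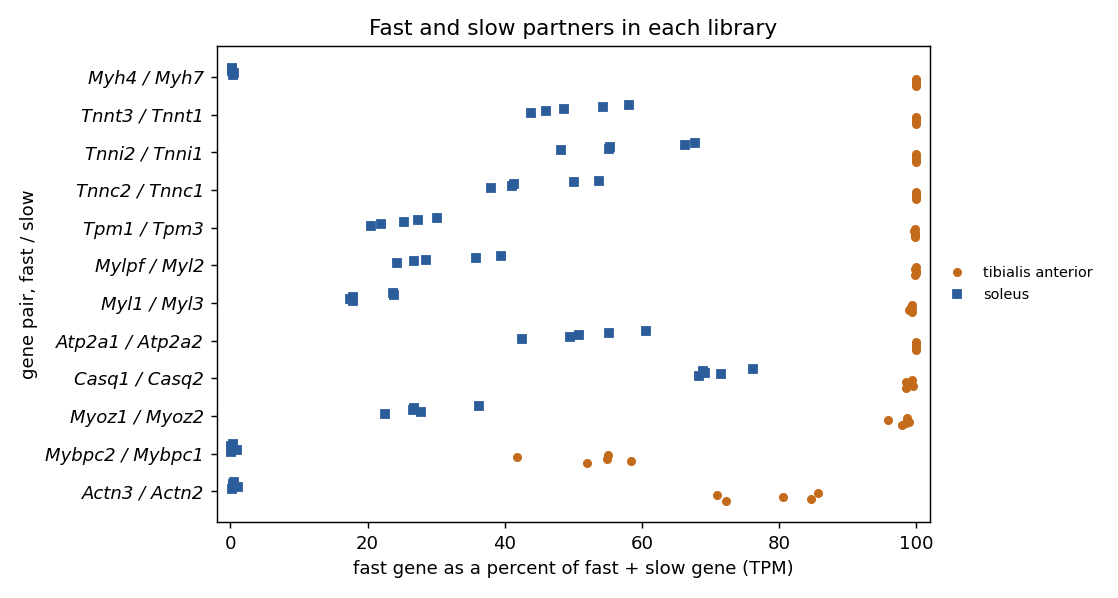
TPM of the fast gene as a percent of the summed TPM of the fast and the slow gene (x axis) for 12 gene pairs (y axis) in each tibialis anterior library (circles) and each soleus library (squares). For troponins, tropomyosin, light chains and the calcium pump, TA libraries sit at 98.9% or more and SOL libraries between 17.5% and 67.8%, while Mybpc2 and Actn3 are at 1.08% or less of their pairs in SOL.

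Calcium handling genes with a slow and a fast form also divided between the muscles. Of 27 genes tested, 11 were higher in TA and 12 in SOL as deposited, and 20 and 6 after median-ratio scaling, 5 of them (Ryr1, Jsrp1, Stac3, Hrc and Fkbp1a) with a reversed call. Over all genes, 8.07% were higher in TA and 77.8% in SOL as deposited, and 38.6% and 31.3% after scaling. Atp2a2, which encodes the slow calcium pump SERCA2, was at 8.75, 11, 7.48, 8.56 and 11.8 TPM in TA and at 3392, 3674, 4117, 4388 and 4809 TPM in SOL (difference -8.60, SE 0.12, adjusted p = 2.34e-12). Atp2a1, the fast pump SERCA1, was the more abundant gene in TA by a wide margin, at 13859 to 17189.7 TPM, and was present in SOL at 3559.6 to 5219 TPM (difference 1.87). The pumps were therefore near parity in SOL, where SERCA1 made up 42.5% to 60.6% of the pair.

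Pvalb, the soluble calcium buffer of fast fibers, had 12681, 7829.7, 11321, 11946 and 9388 TPM in TA and 29.3, 10.4, 6.76, 63.1 and 3.89 TPM in SOL, with libraries 64 and 61 again the highest of the SOL (difference 9.42, SE 0.58, adjusted p = 6.41e-08). Sln, which encodes the SERCA inhibitor sarcolipin, was at 462, 307, 544, 569 and 476 TPM in SOL and at 1.5 to 2.36 TPM in TA (difference -7.31, SE 0.16). A second inhibitor, phospholamban (Pln), was higher in SOL at 13.9 to 35.7 TPM against 1.5 to 2.62 TPM (-2.79). Calsequestrins, which bind calcium within the reticulum, divided as the pumps did, with Casq1 at 1759.7 to 2949 TPM in TA and 690.4 to 883 TPM in SOL (1.60) and Casq2 at 13.8 to 33.3 TPM in TA and 274 to 367 TPM in SOL (-3.81).

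The release machinery differed less. The ryanodine receptor Ryr1 (-0.23), its voltage sensor Cacna1s (0.01, adjusted p = 0.891) and the histidine-rich protein Hrc (-0.10) lay near 0 as deposited, and at 0.41, 0.65 and 0.55 after median-ratio scaling, where each was called higher in TA. The calls of Ryr1 and Hrc as deposited were lost in fits over 20 limb libraries (adjusted p = 0.0716 and 0.404) and all 59 libraries (0.172 and 0.415), and that of Hrc when any 1 of 7 libraries was left out (adjusted p of 0.0507 to 0.0875). The junctophilins Jph1 and Jph2, which tether the reticulum to the surface membrane, triadin (Trdn), the channel subunit Cacng1 and the sodium-calcium exchanger Slc8a3 were higher in TA under both scalings, with differences as deposited of 0.95, 0.86, 0.59, 1.20 and 1.14.

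Regulators of fiber type were expressed at far lower levels. Mstn and Prox1 passed the filter through 1 muscle alone, so their direction was fixed by it and their values are given as a description. Of 46 genes tested, 12 were higher in TA and 27 in SOL as deposited, and 24 and 15 after median-ratio scaling, against 8.07% and 77.8% of all genes as deposited, and 38.6% and 31.3% after scaling. Prox1, a homeodomain factor known for promoting slow fiber genes, was at 0.241, 0.345, 0.291, 0.219 and 0.452 TPM in TA and at 7.22, 9.47, 8.64, 11.5 and 13.1 TPM in SOL. Sox6, a repressor of slow genes, was at 28, 20.8, 28.3, 26.4 and 25.3 TPM in TA and at 6.64, 6.45, 6.09, 6.8 and 6.65 TPM in SOL (difference 1.82, SE 0.08). The large Maf factors, which act on the Myh4 gene, shared this direction, with Maf at 25.6 to 41.9 TPM in TA and 4.41 to 6.64 TPM in SOL (2.38) and Mafa at 11.8 to 19.1 TPM and 2.43 to 6.06 TPM (1.72). Eya4, a coactivator of fast fiber genes, was higher in TA by 2.02, and Tbx15, a factor known from glycolytic fibers, by 0.43.

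Mstn, which encodes the growth inhibitor myostatin, was at 15.7, 16.9, 26.7, 19 and 20.7 TPM in TA and 0.873, 0.304, 0.33, 0.481 and 0.187 TPM in SOL. Fst, the myostatin antagonist follistatin, moved the other way at 1.22 to 1.67 TPM in TA and 8.03 to 17.5 TPM in SOL (-2.24). Myogenic factors were also divided, as Myod1 was higher in TA (12.4 to 26.8 TPM against 4.1 to 9.9 TPM, 1.39) and Myog in SOL (11.4 to 25.5 TPM against 3.19 to 9.24 TPM, -1.55).

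Calcineurin carries the calcium signal of slow motor nerves to NFAT factors. Its catalytic subunits Ppp3ca and Ppp3cb were higher in TA by 0.91 and 1.02, whereas its target and inhibitor Rcan1 was at 119.6 to 241 TPM in SOL and 27.8 to 38 TPM in TA (-2.28). Nfatc2 was higher in SOL (-1.61), and Nfatc1 was at 11 ± 0.643 TPM in TA and 11.1 ± 0.664 TPM in SOL (SD, n = 5), which was not called as deposited (adjusted p = 0.725) and was called higher in TA at 0.57 after median-ratio scaling. The estrogen-related receptors Esrrb and Esrrg, which drive oxidative genes, were higher in SOL (-2.22 and -1.92). The related Esrra was at -0.29 as deposited (adjusted p = 0.000695) and at 0.35, called higher in TA, after median-ratio scaling (adjusted p = 0.000457). The coactivator Ppargc1a did not pass as deposited (0.26, SE 0.12, adjusted p = 0.0546), although it did with the column number as a block (adjusted p = 0.0319) and after median-ratio scaling (0.85). Vgll2 and Tead1, partners in the control of slow genes, and the deacetylase Hdac9 were higher in SOL, with differences of -1.43, -1.03 and -1.57.

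**Figure D4:**
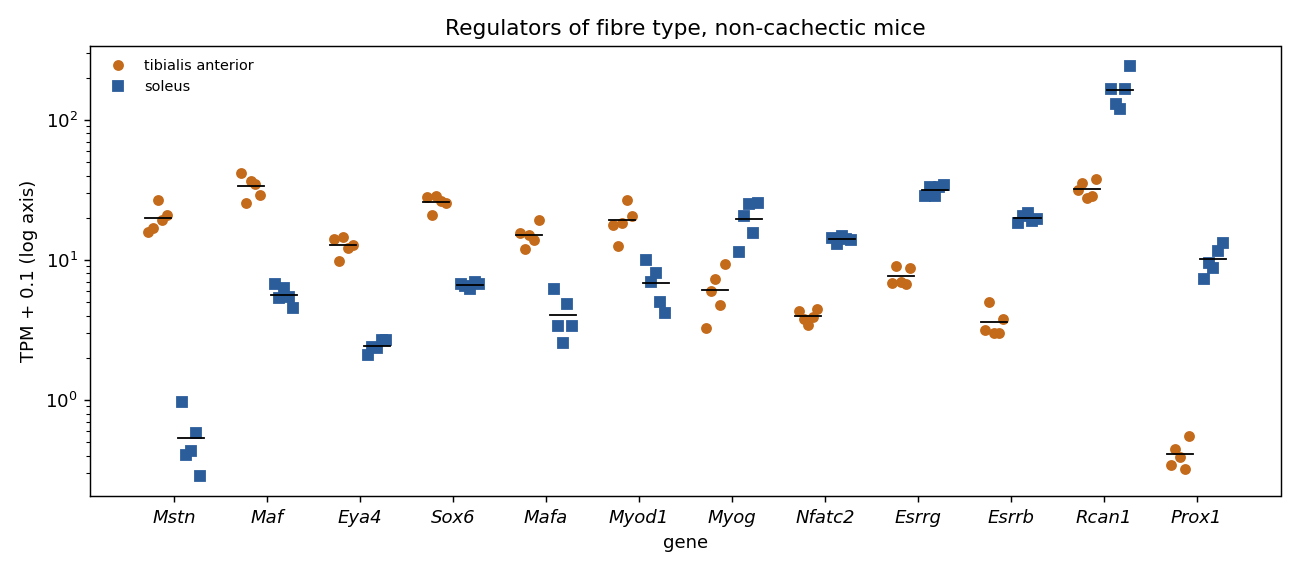
TPM + 0.1 (y axis, log scale) of 12 regulators (x axis) in each tibialis anterior library (circles) and each soleus library (squares), with the mean as a line. The first 6 genes are higher in TA and the last 6 in SOL without overlap, as for Sox6 with at least 20.8 TPM in TA and at most 6.8 TPM in SOL, while Mstn and Prox1 passed the filter through 1 muscle alone.

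Fuel use differed by pathway. Of 36 genes of glycolysis and glycogen metabolism, 24 were higher in TA and 10 in SOL (median 1.24), and 26 and 6 after median-ratio scaling. Of all genes, 8.07% were higher in TA as deposited and 38.6% after scaling. Slc16a3, which encodes the lactate exporter MCT4, led the list at 84.1, 82.5, 101, 79 and 95.7 TPM in TA and 1.84, 1.28, 1.1, 1.95 and 1.08 TPM in SOL (5.20, SE 0.11, adjusted p = 5.6e-11). The abundant enzymes aldolase (Aldoa), enolase (Eno3), glycogen phosphorylase (Pygm) and phosphoglycerate mutase (Pgam2) were higher in TA by 2.03, 2.11, 1.67 and 1.19, with 5946 to 8024 TPM of Aldoa, 5309 to 6693 TPM of Eno3, 2583 to 3637 TPM of Pygm and 2827 to 3804 TPM of Pgam2 there. Ldhb, the heart form of lactate dehydrogenase, went the other way at 1612, 1621, 1746, 1634 and 1786 TPM in SOL and 114, 272, 109.9, 144 and 222 TPM in TA (-3.37, SE 0.22). Among the genes that buffer ATP, muscle creatine kinase Ckm was higher in TA (1.21) and the AMP deaminase Ampd3 in SOL (-2.88).

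Genes of fatty acid use were higher in SOL almost throughout, with 31 of 33 called in that direction and 1 in TA (median -1.05), where 77.8% of all genes tested were higher in SOL. After median-ratio scaling 26 were higher in SOL and 2 in TA, against 31.3% of all genes higher in SOL. Fabp3, which carries fatty acids in the cytosol, was at 4526, 4779, 6028, 4311 and 5364 TPM in SOL and at 682, 1153, 898, 696 and 1074 TPM in TA (-2.49, SE 0.15), and lipoprotein lipase, Lpl, differed by -2.50. Of the markers of fat cells, Lep passed the filter through SOL alone. The 5 that passed through both muscles were also higher in SOL, under both scalings. All fat cell markers summed to 328.4 to 1079 TPM in SOL and 24.52 to 59.46 TPM in TA. Their part in the fatty acid list was not tested. Myoglobin (Mb), the oxygen store of the fiber, was at 10436 to 13290.0 TPM in SOL and 5586 to 8011 TPM in TA (-0.92), and the oxygen sensor Egln3 differed by -2.02.

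The citric acid cycle did not move as a unit. Idh2, the NADP-linked isocitrate dehydrogenase, was at 1179.7, 1122, 1342, 1248 and 1443 TPM in SOL and 64.2, 114, 73.4, 71.7 and 119 TPM in TA (-3.87, SE 0.17), whereas Idh3a, the catalytic subunit of the NAD-linked enzyme of the cycle, was at 274 to 352 TPM in SOL and 631 to 683 TPM in TA (1.10, SE 0.08). Citrate synthase, Cs, was at 670.3 ± 17.7 TPM in TA and 696 ± 41.4 TPM in SOL (SD, n = 5), a difference of -0.05 that was not called (adjusted p = 0.31) and that became 0.59 and called after median-ratio scaling. Of 23 genes of the cycle, 4 were higher in TA and 11 in SOL as deposited, and 20 and 3 after scaling, where the shares of all genes were 8.07% and 77.8%, and then 38.6% and 31.3%.

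Nuclear genes of oxidative phosphorylation changed direction with the scaling. As deposited, 47 of 74 were higher in SOL and 2 in TA (median -0.17), but the list sat above the median of all genes, and after median-ratio scaling 68 were higher in TA and 5 in SOL (median 0.47). Over all genes the shares in SOL and TA were 77.8% and 8.07% as deposited, and 31.3% and 38.6% after scaling. The call was reversed for 41 of the 74. Among named subunits of cytochrome oxidase, Cox8a and Cox6a2 were higher in SOL under both scalings (-1.39 and -1.04 as deposited) while Cox7a1 was higher in TA by 0.24, a call that was lost in fits over 20 limb libraries (adjusted p = 0.583) and all 59 libraries (adjusted p = 0.432). The 13 protein genes of the mitochondrial genome included 11 that were higher in TA and none in SOL as deposited (median 0.31), and 13 higher in TA after median-ratio scaling, while under quantile normalization 3 were higher in TA and 2 in SOL. Their differences as deposited were led by mt-Nd6 at 0.93, and mt-Co1, the most abundant gene of both muscles at 77276 to 91846 TPM, was at -0.10 (adjusted p = 0.153, and 0.55 and called after median-ratio scaling). The 10 most abundant genes together took 46.7% ± 1.33 of TPM in TA and 40.7% ± 1.44 in SOL (SD, n = 5 each, p = 0.00794, two-sided exact permutation test, adjusted p = 0.00794 over the 2 composition measures), and the exact p was 0.0625 with libraries paired by column number.

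Genes of the membrane and the nerve contact were mixed. Of 28 tested, 7 were higher in TA and 17 in SOL, and 14 and 13 after median-ratio scaling. The shares of all genes were 8.07% and 77.8%, and 38.6% and 31.3% after scaling. Atp1b2, a beta subunit of the sodium pump, was at 127, 99, 111, 134 and 114 TPM in TA and 15.3, 10.4, 12.7, 12.3 and 11.8 TPM in SOL (3.13, SE 0.10). Ncam1, an adhesion protein that marks the synapse and fibers that have lost their nerve, was at 10.2, 11.4, 8.64, 9.25 and 23.1 TPM in SOL and 1.1 to 2.23 TPM in TA (-2.31, SE 0.22). Markers of Schwann cells were higher in SOL in 6 of 6 cases as deposited and in 3 of 6 after median-ratio scaling (77.8% and 31.3% of all genes), and their part in the values of Ncam1 was not tested. Among 24 factors known for patterning the limb, 5 were higher in TA and 17 in SOL, near the 77.8% of all genes higher in SOL as deposited. After scaling 7 were higher in TA and 12 in SOL, against 38.6% and 31.3% of all genes. Of the 24, 4 passed the filter through SOL alone. Barx2 was at 39.1, 46.8, 49.6, 50.9 and 36.7 TPM in SOL and 1.63 to 2.42 TPM in TA (-3.97, SE 0.11). Irx3 was at 3.07 to 4.32 TPM in TA and 0.535 to 1.42 TPM in SOL (1.38). It reached 1 TPM in SOL library 61 alone, so it passed the filter chiefly through TA. Of 37 genes of growth and wasting, 4 were higher in TA and 27 in SOL, and 12 and 13 after scaling, which is near the 77.8% and 31.3% of all genes higher in SOL. In this list Mstn passed the filter through TA alone and Fstl3 through SOL alone.

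Matrix genes and tendon, fibroblast and fat cell markers were higher in SOL. All 33 collagen and matrix genes tested were called in that direction (median -1.20), and 23 were after median-ratio scaling, when 1 was higher in TA (77.8% and 31.3% of all genes were higher in SOL). Col1a1 was at 164, 89.9, 109, 91.5 and 132 TPM in SOL and at 36.2, 40.2, 13.9, 13 and 19.9 TPM in TA (-2.31), and periostin (Postn) differed by -2.64. Tendon markers were higher in SOL in the 7 cases that passed the filter through both muscles, under both scalings, with Mkx passing through SOL alone. They summed to 546 to 785.9 TPM in SOL and 64.75 to 97.81 TPM in TA. Comp, a protein of tendon and cartilage, was at 64.1, 41.3, 67.6, 61.8 and 65.4 TPM in SOL and 1.46 to 2.7 TPM in TA (-4.24), the tendon proteoglycan Fmod differed by -3.48 and tenomodulin (Tnmd) by -3.29. Markers of fibroblasts, such as Dcn (-1.62), were higher in SOL in 8 of 8 cases, and in 7 after median-ratio scaling (77.8% and 31.3% of all genes). They summed to 1169 to 1538 TPM in SOL and 309.7 to 499 TPM in TA. How far tendon and fibroblasts in the samples carry the matrix genes was not tested, and more cells of a type cannot be told apart from more RNA per cell in whole muscle.

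Fat cell markers varied widely within SOL, where Adipoq was at 92.1, 41.8, 70.2, 25.5 and 77.6 TPM against 2.72 to 5.36 TPM in TA (-3.62, SE 0.31), and Cfd differed by -3.98. Endothelial markers were higher in SOL in 10 of 10 cases as deposited but in 2 of 10 after median-ratio scaling (77.8% and 31.3% of all genes), with Cdh5 at -0.69 and then at -0.06, and their summed level was 254.2 to 308.8 TPM in SOL and 147.9 to 200.2 TPM in TA. Macrophage markers were higher in SOL in 8 of 8 cases (7 after scaling), at a summed 114.3 to 156 TPM against 31.29 to 63.7 TPM. Of these, Adgre1 passed the filter through SOL alone. Smooth muscle and pericyte markers were higher in SOL in 8 of 8 cases (6), and satellite cell markers in 6 of 6 (5), of which Pax7 and Myf5 passed through SOL alone. Red blood cell markers were called in 2 of 5 cases and in none after scaling, and the neutrophil marker that could be tested was not called. With the column number as a block, 4 of the 5 red blood cell markers and the neutrophil marker were called higher in SOL. The exception was Ighm, the heavy chain of IgM and the marker of B cells that passed the filter, at 158, 42.1, 90.8, 198 and 58.3 TPM in TA and 3.46 to 6.86 TPM in SOL (4.08, SE 0.37), while the other 5 B and plasma cell markers were below the filter. None of the 5 melanocyte markers passed it, with a summed level of at most 0.02667 TPM in TA and of 1.022 to 1.586 TPM in SOL. Markers common to skeletal fibers summed to 46880 to 53770 TPM in TA and 52940 to 60680 TPM in SOL.

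Of 34 chaperones and genes of mechanical load, 29 were higher in SOL and 2 in TA, near the 77.8% of all genes as deposited. After median-ratio scaling 26 were higher in SOL and 5 in TA, where 31.3% of all genes were higher in SOL. Cryab, a small heat shock protein that protects desmin and titin, was at 2612, 3039.6, 4209, 3126 and 3965 TPM in SOL and at 627 to 1075 TPM in TA, a difference of -1.35 after median-ratio scaling, and the related Hspb7 differed by -2.11 as deposited. Pdlim1, a Z-line and stress fiber adaptor, was at 142 to 180.2 TPM in SOL and 6.51 to 15.1 TPM in TA (-3.98).

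Some of the genes with the highest differences belonged to no list. In TA they included Mylk4, a myosin light chain kinase, at 519 to 942 TPM against 22.5 to 31.5 TPM in SOL (4.74), the potassium channel Kcnc4 at 77.4 to 133 TPM against 3.46 to 4.24 TPM (4.50), the tetraspanin Tspan8 at 42.8 to 76.8 TPM against 0.44 to 1.6 TPM (5.01) and the transcript 2310008N11Rik at 30.5 to 52.1 TPM against 0.0983 to 0.945 TPM. In SOL, Gm34302 (chr3:63481112-63483879), a gene model that GENCODE lists as protein coding, was at 557, 693, 852, 768 and 859.8 TPM, and at 0.198, 0, 0.234, 0.199 and 0.601 TPM in TA. Gm34302 passed the filter through SOL alone and 2310008N11Rik through TA alone, so their directions were fixed by it.

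The same comparison was made in the 5 TA and 5 SOL libraries of mice with the cachectic melanoma, which share no sample with those above. Of 11802 genes tested there, 3352 (28.4%) were called, 986 higher in TA and 2366 in SOL, and 5245 were called with the column number as a block. The count was 6297 without TA library 8. Of the genes that differed by 2-fold or more in non-cachectic mice and were tested in both sets, 192 of 215 of those higher in TA and 1113 of 1667 of those higher in SOL were called in the same direction, and 211 and 1618 had the same sign. A single gene was called in opposite directions. This was Actc1, cardiac actin, named here after its values were seen, at 1.54 in non-cachectic mice (89.1 ± 48.8 TPM in TA and 26.6 ± 6.01 TPM in SOL) and -1.43 in cachectic mice (11.1 ± 5.15 and 29.6 ± 5.29 TPM, SD, n = 5 each). As deposited, slow contractile genes were higher in SOL in 13 of 13 cases in cachectic mice too, against 2366 of all 11802 genes. Fast contractile genes were higher in TA in 10 of 11, against 986 of all 11802 genes.

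The difference between the 2 contrasts was tested in a fit of all 20 limb libraries. It passed for 1877 of 12278 genes (15.3%), and for 5165 with the column number as a block. The count ranged from 1046 to 2986 when 1 library was left out, at SOL library 65 of the non-cachectic mice and TA library 6 of the cachectic mice. The TA minus SOL value was more negative in non-cachectic mice for 1718 of the 1877 as deposited, but for 564 of 1675 after median-ratio scaling. Myh1, Myh2, Myh4 and Myh7 did not pass this test in the fit without a block, and their values with the block are not given. Myh4 was at 9.60 in non-cachectic and 6.67 in cachectic mice (adjusted p = 0.0991 for the difference). In cachectic SOL, Myh4 was at 49.2, 4989.4, 69.8, 56.7 and 31.2 TPM in libraries 6 to 10, so that library 7 stood far above the others. The same library stood apart for Actn3 (2357 TPM, against 13.4 to 34 TPM) and for Mybpc2 (1428 TPM, against 1.63 to 18.7 TPM). Without library 7 the cachectic value of Myh4 was 7.99 and the difference of the contrasts was 1.60 and passed (adjusted p = 0.0199), an alternative chosen after seeing the data. Of the load genes, Csrp3 was at -2.38 in non-cachectic and -6.10 in cachectic mice and Ankrd2 at -2.83 and -5.52, and the difference of the contrasts passed for both. The tendon marker Comp moved in the other direction, at -4.24 and -1.65, as did Dcn at -1.62 and 0.10.

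**Figure D5:**
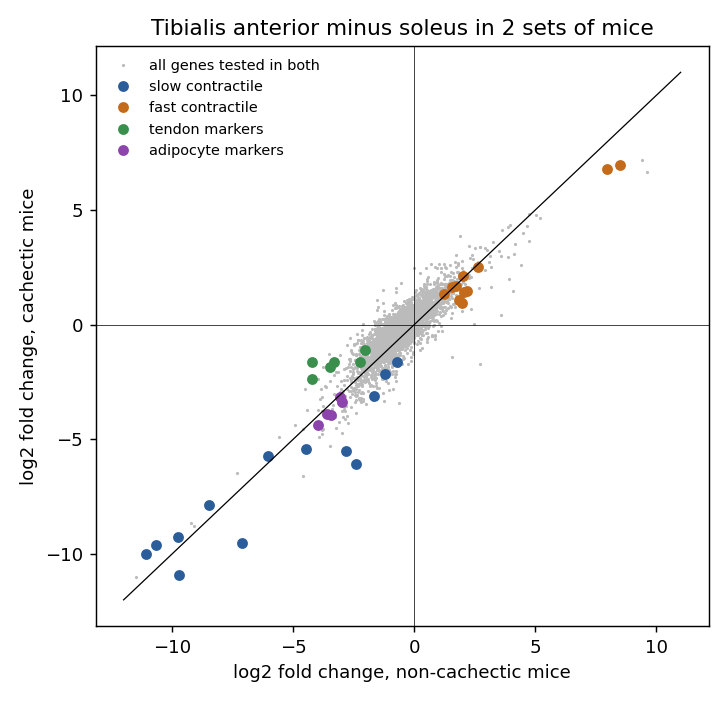
Difference between tibialis anterior and soleus (log2 fold change of TPM + 1) in non-cachectic mice (x axis) and cachectic mice (y axis) for genes tested in both, with the line of equal values. Slow contractile genes (blue) and fast contractile genes (orange) lie on opposite sides of 0, with Csrp3 at -2.38 and -6.10 and Ankrd2 at -2.83 and -5.52 well below the line. The 6 tendon markers tested in both (green) lie above it, as Comp does at -4.24 and -1.65, and adipocyte markers are shown in purple.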

How the data were processed

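The members, gene lists and tests were chosen with earlier results of these data known. RNA-seq libraries of whole muscle were deposited as 1 table of TPM for 47643 gene symbols in 59 columns. Per the methods, which describe the diaphragm, the authors mapped reads to GRCm38 (mm10 in the submitters' processing notes) in CLC Genomics Workbench and took TPM from the same software. TPM were deposited without counts. The annotation used for counting is not given in the sources used here, and kit and instrument differ between the labels and the methods. Each column sums to the same total, so depth is unknown and no counting interval was computed.

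Columns carry their group in their names and were used as unnumbered members of it. Genes with at least 1 TPM in at least 5 of the 10 libraries were tested on log2(TPM + 1), with a pseudocount of 1, by limma-trend (limma 3.58.1, R 4.3.3) with Benjamini-Hochberg adjustment at 0.05, and the second call rule also asked for a 2-fold difference. The study's own tests were Kruskal-Wallis tests with Dunn's comparison on log values, whereas limma was used across all genes here. Median-ratio scaling divided each library by its median ratio to the geometric mean over genes above 0 in every library. No column of the table was left unassigned to a group. A gene passed the filter through 1 muscle alone where no library of the other muscle reached 1 TPM. Composition was compared by exact permutation of the libraries. The script was tested on simulated data. Alternatives were another pseudocount, no filter or a mean of at least 5 TPM, 3 other scalings, array weights, a rank-sum test, a test against a 2-fold threshold, fits over 20 or 59 libraries, a replicate block and leaving out each library. Deviations of TA and SOL libraries with the same column number correlated at 0.332 to 0.49 in non-cachectic mice. The range was 0.169 to 0.481 in cachectic mice, where 2 of the 5 numbers correlated more highly with another number. The numbers may therefore pair the samples, but the labels do not say that a number is a mouse. The main fits and their adjusted p-values were unpaired, and pairing was used as an alternative only. In non-cachectic mice 10254 genes were called with the replicate block. All p-values measure the spread between these samples.

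Genes were named by rule: the 10 highest and the 10 lowest differences among called genes with a mean of at least 5 TPM, the 10 most abundant genes of each muscle, members of the myosin, slow, fast, calcium and regulator lists, and of each other list the 4 most abundant members and those with the highest and lowest difference. Not every gene so allowed is named. Positions are from GENCODE M21 (GRCm38), which held a unique entry for 96.7% of the symbols tested, and sequences are from RefSeq GRCm38.p6. Where RefSeq gave several starts, that nearest to the GENCODE start was used.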

Additional observations from a re-analysis of the deposited data

Results flagged for a closer look

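In 9 of 236 groups of 5 libraries examined, 1 library stood apart from the other 4, where chance alone marks about 1 in 20 groups. The gap of that library to its nearest neighbor, as a share of the range of the group, was 0.888 for Tnnt3, 0.765 for Acta1, 0.736 for Mybpc2, 0.807 for the mitochondrial share and 0.796 for the share of the 10 most abundant genes, all in TA library 62. It was 0.744 for Mybpc1 in TA library 64, 0.865 for Myh14 and 0.816 for Comp in SOL library 62, and 0.723 for Ncam1 in SOL library 65.

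For some named genes the TA minus SOL difference itself differed between non-cachectic and cachectic mice (limma, adjusted p under 0.05 for the difference of the contrasts, non-cachectic minus cachectic, log2). Among contractile genes it was 3.714 for Csrp3, 2.692 for Ankrd2, 2.403 for Myl3, 1.435 for Actn2, 1.306 for Acta1, 1.011 for Myl1, 0.9212 for Smpx, 0.9125 for Mybpc1 and -0.6223 for Tpm3, and 2.97 for cardiac actin, Actc1. Among regulators and metabolic genes it was 1.068 for Esrrb, 0.4367 for Esrra, -0.657 for Tead1, -1.608 for Barx2, 0.7665 for Pgam2, -0.6241 for Lpl, -1.051 for Idh2 and 1.456 for Cryab. Among markers of other cells it was -2.591 for Comp, -1.617 for Fmod, -1.676 for Tnmd, -1.724 for Dcn, -0.6494 for Cdh5 and 2.633 for Ighm. These values are as deposited, where the median over all genes tested was -0.321, and small ones are to be read against it.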

How the results depend on the processing

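The count of called genes was 9972 and fell to 6542 with a mean of at least 5 TPM, to 1950 at an unadjusted p under 0.01 with a 2-fold difference and to 914 with a test against a 2-fold threshold. The count at 2-fold or more was 1956, and was 3074 with a pseudocount of 0.1, 1289 with a mean of at least 5 TPM, 1132 after median-ratio scaling, 1090 after quantile normalization and 914 with the threshold test. The share of calls higher in SOL was 90.6% as deposited, 83.2% without mitochondrial genes, 46.7% after quantile normalization and 44.8% after median-ratio scaling. In cachectic mice the count of 3352 became 5127 after median-ratio scaling, 5320 in a fit of all limb libraries and 5245 with the replicate block. The count for the difference of contrasts, 1877, became 1184 with a mean of at least 5 TPM and 5165 with the replicate block. With the replicate block the mitochondrial share differed by 7.41 and the share of the 10 most abundant genes by 6.04 percentage points (p = 0.0625, exact sign-flip permutation). Apart from Ppargc1a, the block changed no call of a gene named with its values in the comparison of the non-cachectic muscles. For some named genes the sign changed, with a call as deposited, under the other setting or under both. After median-ratio scaling these were Ryr1 (0.4089), Hrc (0.5458), Esrra (0.3506), Nfatc1 (0.5698), Cs (0.5917), mt-Co1 (0.5467) and Acta1 (0.5191). After quantile normalization they were Ryr1 (0.2152), Hrc (0.2948), Esrra (0.06336, not called there), Nfatc1 (0.485) and Cs (0.3325). Without mitochondrial genes they were Hrc (0.09543), Nfatc1 (0.1627) and Cs (0.1414). Of these genes, Nfatc1, Cs, mt-Co1 and Acta1 were not called as deposited. Leaving out 1 library gave 9741 to 9911 called genes, 1863 to 2070 at 2-fold, 2547 to 6297 in cachectic mice (the last without TA cachectic library 8), differences of 6.62 to 8.15 and 5.46 to 6.59 percentage points in the composition shares, and 1046 to 2986 for the difference of contrasts, which was 2986 without TA library 6 and 1075 without SOL library 6 of the cachectic mice, and 1187, 1070, 1182 and 1046 without TA libraries 61 and 63 and SOL libraries 63 and 65. With all libraries the difference of contrasts was 2.929 for Myh4, 1.155 for Actn3 and 1.528 for Mybpc2. Without SOL library 7 of the cachectic mice, left out after seeing the data, it was 1.605 (limma, adjusted p = 0.0199), -0.1855 and 0.06181. Without SOL library 10 of the cachectic mice it was 3.424, 1.653 and 2.334. The cause of these changes was not tested. Depth is unknown, so its limit on low genes could not be given.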

Other observations

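The diaphragm libraries with the same column numbers showed the split seen in TA for the perinatal heavy chain Myh8. It was at 0.712 and 0.341 TPM in diaphragm libraries 61 and 63 and at 15.1, 23.9 and 27.2 TPM in diaphragm libraries 62, 64 and 65, where TA was at 0.74 and 1.53 TPM and at 52, 61.2 and 57.8 TPM. In SOL it was at 5.8 and 3.31 TPM and at 2.74, 17.1 and 11.1 TPM, so that library 62 did not follow the others. Myh13 did not show this split in the diaphragm, where it was at 0.192, 0.124, 0.0801, 0.197 and 0.289 TPM in libraries 61 to 65. Myh13 in SOL ranged only from 2.63 to 4.45 TPM.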
